A study of Mus musculus with 2 samples.

Results

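EP300 occupancy across Zbtb16 in the newborn mouse heart was described from the peaks whose summits fell in the gene body or within 100 kb of either end of it, at chr9:48554297-48936222 in the mm10 assembly (GRCm38). The optimal list of EP300 peaks held 14 such peaks among 17339 on the main chromosomes. That list was selected by IDR (irreproducible discovery rate), a measure of how well the ranks of a peak match between a pair of lists. The 14 peaks are called Z1 to Z14 here, in the order in which transcription of Zbtb16 would meet them. Zbtb16 was taken up because it held the peak of highest signal and the cluster of highest summed signal in that list, so the signal values, ranks and counts given for it are descriptions of a chosen gene and carry no test.

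The data came from chromatin immunoprecipitation with an EP300 antibody followed by sequencing (ChIP-seq) of heart tissue from mice of the strain labelled B6NCrl at an age of 0 day, with no treatment or genetic change named in the labels. There were 2 samples in 1 group, labelled biological replicates 1 and 2. Both carry the same biosample and donor identifier, so the spread between them may be technical. The labels name no sorting of cells, so a peak cannot be assigned to one of its cell types, and a site bound in few cells cannot be told apart from a site bound weakly in many.

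Zbtb16 encodes PLZF, a transcription factor with a BTB domain at one end and a row of zinc fingers at the other. It represses many of its targets by recruiting corepressor complexes that hold histone deacetylases, and it is known from stem cells of the testis, from innate-like lymphocytes, from limb patterning and, in humans, from its fusion to the retinoic acid receptor RARA in a form of acute promyelocytic leukaemia. Its transcription is induced by glucocorticoids in many cell types, and in heart cells the protein is known as a partner of the angiotensin AT2 receptor. EP300 is a histone acetyltransferase with no sequence preference of its own, which transcription factors bring to enhancers and promoters. The glucocorticoid receptor is one of the factors that recruit it, and it binds DNA as a pair at a palindrome of 2 half-sites of 6 bases each, related to AGAACA, with a spacer of 3 bases between them. This palindrome is the glucocorticoid response element, or GRE.

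The sequences that the description turns on are the 300 bases around the summits of the 4 peaks of highest signal, Z10, Z2, Z3 and Z12, and around Z5, which is weaker and holds a GRE. Each was read from RefSeq's GRCm38 sequence and is given on the plus strand, while Zbtb16 lies on the minus strand, and the summit is the base in position 151. Capitals mark the 15 bases of a palindrome with at least the core of a GRE, a looser form of its consensus in which the outermost base on each side is left free. Z2 holds a pair of such palindromes that overlap, and Z12 holds none.
Z10, chr9:48723625-48723924: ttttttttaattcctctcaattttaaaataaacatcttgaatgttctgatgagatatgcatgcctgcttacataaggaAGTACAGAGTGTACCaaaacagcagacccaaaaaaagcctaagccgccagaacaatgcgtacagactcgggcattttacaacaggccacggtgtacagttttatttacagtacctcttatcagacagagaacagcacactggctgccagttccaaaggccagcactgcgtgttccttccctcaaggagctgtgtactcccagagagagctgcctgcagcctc
Z2, chr9:48740139-48740438: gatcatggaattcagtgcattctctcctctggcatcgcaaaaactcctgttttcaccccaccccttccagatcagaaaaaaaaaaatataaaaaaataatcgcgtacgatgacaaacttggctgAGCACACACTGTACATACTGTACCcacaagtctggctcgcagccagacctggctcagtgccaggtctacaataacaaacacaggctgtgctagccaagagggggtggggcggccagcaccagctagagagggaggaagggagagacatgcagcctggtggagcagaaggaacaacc
Z3, chr9:48737498-48737797: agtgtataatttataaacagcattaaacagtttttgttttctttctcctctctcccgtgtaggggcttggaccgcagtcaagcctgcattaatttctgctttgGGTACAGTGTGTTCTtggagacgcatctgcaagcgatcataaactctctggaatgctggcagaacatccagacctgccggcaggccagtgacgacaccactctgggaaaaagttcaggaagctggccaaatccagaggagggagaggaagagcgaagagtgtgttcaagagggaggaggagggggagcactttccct
Z5, chr9:48736388-48736687: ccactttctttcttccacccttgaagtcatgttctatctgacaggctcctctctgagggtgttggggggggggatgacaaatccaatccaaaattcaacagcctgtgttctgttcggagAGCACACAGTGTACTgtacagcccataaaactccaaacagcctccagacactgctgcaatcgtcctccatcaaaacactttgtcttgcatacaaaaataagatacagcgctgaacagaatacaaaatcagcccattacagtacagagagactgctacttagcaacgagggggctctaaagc
Z12, chr9:48707314-48707613: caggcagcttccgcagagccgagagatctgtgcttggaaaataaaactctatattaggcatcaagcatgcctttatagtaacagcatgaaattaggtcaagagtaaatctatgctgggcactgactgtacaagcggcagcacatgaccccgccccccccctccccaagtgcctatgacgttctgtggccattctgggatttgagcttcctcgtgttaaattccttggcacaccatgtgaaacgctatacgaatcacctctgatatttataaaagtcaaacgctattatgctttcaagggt

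Zbtb16 (ENSMUSG00000066687.5) spans chr9:48654297-48836222 on the minus strand, which is 181926 bp, and the annotated transcript used here has 7 exons. The 14 peaks were not spread along the gene. Intron 3, chr9:48717370-48743463 and 26094 bp long, held 9 of them, Z2 to Z10, with a summed signal value of 1013, or 78.7% of the sum of 1288 over all 14. The signal value is the authors' own measure of the height of a peak, and its formula is not given in the sources used here. Intron 4, which is 51957 bp long, held Z11 and Z12 with 13.3% of the signal, and intron 2, the longest at 88181 bp, held only Z1 with 2.99%. Introns 1, 5 and 6 held no optimal peak. Z13 and Z14 lay beyond the last exon, 4970 bp and 7708 bp past the 3′ end of the gene, with 5.03% of the signal together.

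**Figure D1:**
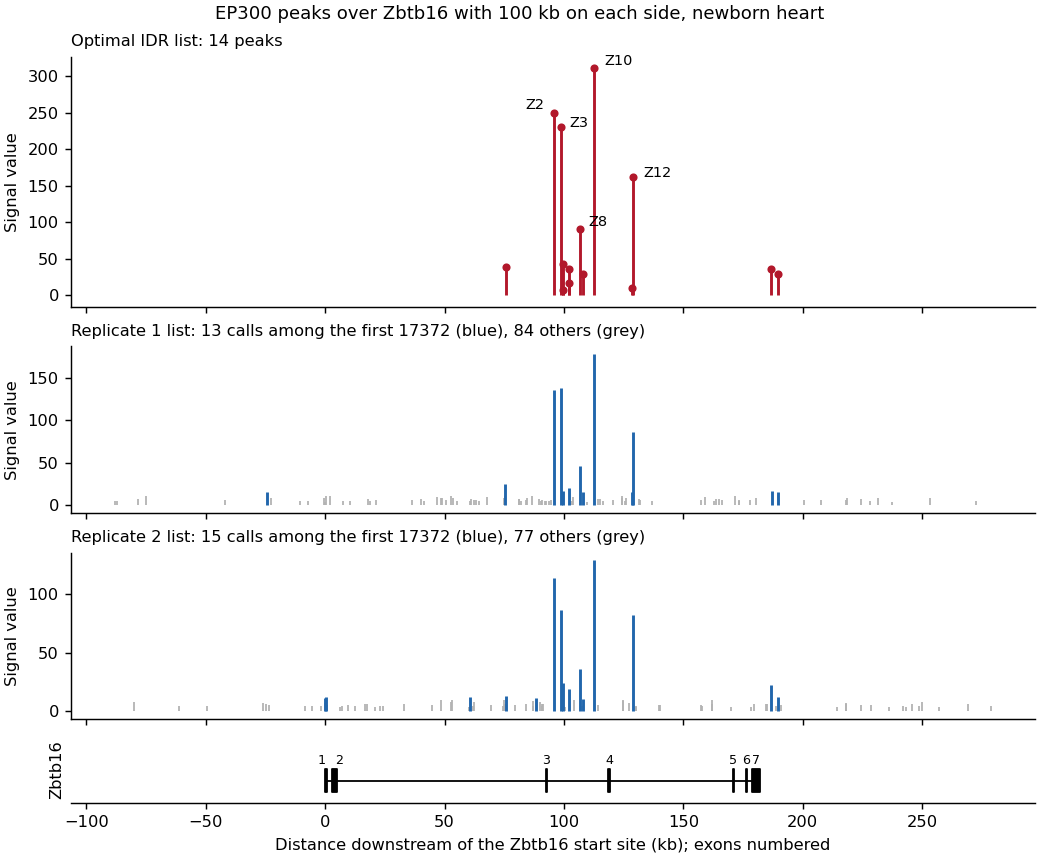
EP300 peaks along Zbtb16 and 100 kb on each side, by distance downstream of the gene's start (kb). Lines show the signal value of each call in the optimal list (14 peaks), the replicate 1 list and the replicate 2 list, with calls among the first 17372 of a replicate in blue and the others in grey, above the numbered exons. The tall calls of all 3 lists stand together in introns 3 and 4, in the optimal list between 95933 bp and 128758 bp downstream of the start.

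The peak of highest signal in the optimal list was Z10, in intron 3, 112447 bp downstream of the start of the gene. Its signal value was 310.9 in the optimal list, 178.1 in the replicate 1 list, where it ranked 1 of 300000 calls, and 129.2 in the replicate 2 list, where it ranked 4. Z2 lay 95933 bp downstream of the start, with 250.1 in the optimal list, 136.3 in replicate 1 and 114.0 in replicate 2. It ranked 10 in the optimal list, 11 in replicate 1 and 10 in replicate 2. Z3 lay 98574 bp downstream, with 231.1 in the optimal list, 137.8 in replicate 1 and 87.1 in replicate 2. It ranked 14 in the optimal list, 10 in replicate 1 and 36 in replicate 2. Z12, in intron 4 and 128758 bp downstream, had 161.7 in the optimal list, 86.4 in replicate 1 and 82.4 in replicate 2, and ranked 70, 88 and 48 in these lists. These 4 peaks were the only ones of the gene among the first 100 of the optimal list, and each replicate list also had 4 calls of the interval among its first 100. The summits of the 4 lay within 13 bp of each other between the optimal and the replicate 1 list. In the replicate 2 list the farthest was that of Z10, 35 bp away.

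The next peak was Z8 in intron 3, with a signal value of 90.3 in the optimal list, 46.8 in replicate 1 and 36.4 in replicate 2, and rank 553 in the optimal list. The other 9 peaks had optimal signal values from 7.24 to 42.7. The median of all 14 was 37.4, beside 30.6 over the 17339 optimal peaks, so most peaks of Zbtb16 were of common height, and the gene stood out by its few tallest. Z5 had a signal value of 42.7 in the optimal list, 17.2 in replicate 1 and 24.2 in replicate 2. Z1, the peak nearest to the start of the gene, had 38.6 in the optimal list, 24.7 in replicate 1 and 12.9 in replicate 2. Past the 3′ end, Z13 had 36.3 in the optimal list, 17.2 in replicate 1 and 22.3 in replicate 2, and Z14 had 28.4 in the optimal list, 11.7 in replicate 1 and 12.3 in replicate 2. Z9, in intron 3, had 29.2 in the optimal list, 15.8 in replicate 1 and 10.8 in replicate 2. Of the 10 peaks with a call within 100 bp in both full replicate lists, 7 had the higher value in replicate 1, all 5 of the strongest peaks among them, and 3 (Z5, Z13 and Z14) in replicate 2. For Z14 this rests on the 100 bp limit, since replicate 1 also had a higher call, of 15.3, at 114 bp. The lists were made separately, so their values are not on a shared scale.

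The remaining peaks were less securely placed. Z4 was the weakest, with a signal value of 7.24 and a deposited −log10 q of 0.0234, and it had no replicate 1 call within 100 bp. It was also the only one of the 14 missing from the conservative IDR list. Z6 (16.5), Z7 (35.3) and Z11 (9.22) each had a call within 100 bp in 1 replicate only. Z4, Z6 and Z11 each stood beside a stronger peak, with summits 199 bp from Z5, 200 bp from Z7 and about as far from Z12. The intervals of such neighbours overlap. Over the whole optimal list 36.5% of peaks had another summit closer than the usual width of a call, beside 6 of the 14 at Zbtb16, and all 6 of these lay between 195 bp and 205 bp from it, as did 34.8% of the 6326 close peaks of the list.

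**Figure D2:**
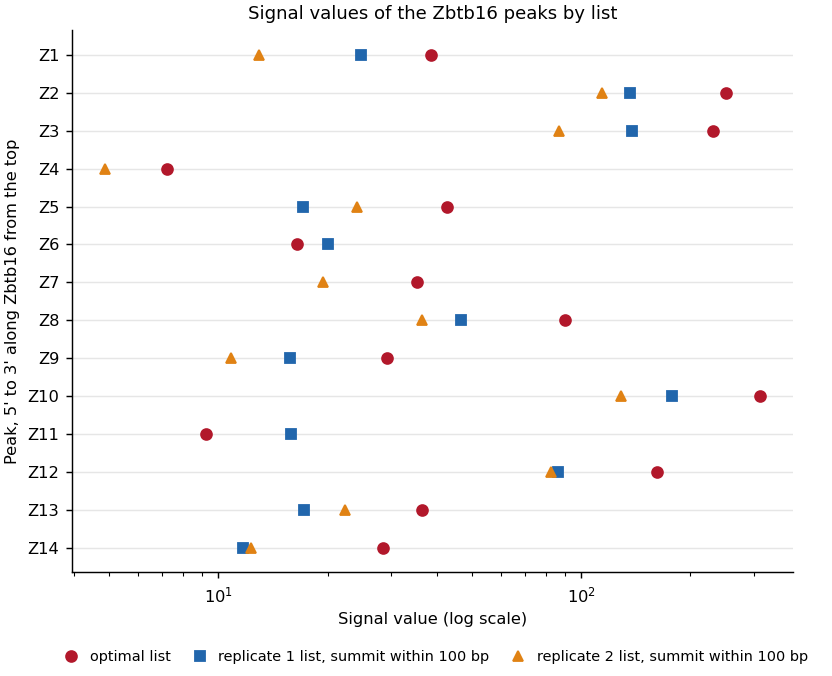
Signal value (log scale) of each Zbtb16 peak in the optimal list and of the call with a summit within 100 bp in the list of replicate 1 and of replicate 2, with peaks ordered along the gene. Z10, Z2, Z3 and Z12 are the 4 highest in all 3 lists, and Z4, Z6, Z7 and Z11 lack a mark for 1 replicate.

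Both replicates were then asked for the same sites. Among the first 17372 calls of each replicate, as many as the optimal list holds, 9 of the 14 Zbtb16 peaks had a summit within 100 bp in both, beside 40.9% of all optimal peaks. With the first 10000 calls of each replicate the count was 5. For replicate 1 alone the count was 11 of 14, beside 65.3%, and for replicate 2 alone 11 of 14, beside 55.8%. A deposited −log10 q of at least 2 was carried by 11 of 14, beside 57.7% of all, and 13 of 14 stood in the conservative list, beside 67.5%. The conservative list, of 15628 peaks, is not a subset of the optimal list, of which 11707 peaks stand in it. The IDR score, which is at most 1000, was at 1000 for 10 of 14 and for 37.4% of all. These shares were above the background, but the gene was chosen for its high signal in the same reads and nothing is read from them.

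Beyond the 14 optimal peaks the interval held many weak calls. The pooled list, called on the reads of both replicates together, had 96 calls in the interval, replicate 1 had 97 and replicate 2 had 92, from 300000 in each list. Per 100 kb this was 25.1 calls in the pooled list, beside 11.0 over the main chromosomes, and for the optimal list it was 3.67, beside 0.636. The median signal of the pooled calls in the interval was 10.3, beside 8.75 over that list. The highest pooled call that overlapped none of the 14 peaks had a signal of 22.3 and lay in intron 4.

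The start of Zbtb16 carried only weak EP300 calls. No optimal peak lay within 1 kb of it, none lay upstream of it, and the nearest one inside the gene, Z1, lay 75555 bp downstream. The best pooled call within 1 kb had a signal value of 20.4 and rank 18969, the best replicate 1 call 11.3 and rank 23836, and the best replicate 2 call 12.3 and rank 12665. The tallest intronic peak was thus many times higher than any call at the start in each list. The weakest of the 14 peaks were not. The best pooled call at the start, 20.4, was above the optimal values of Z6 (16.5), Z11 (9.22) and Z4 (7.24). In replicate 2 the best call at the start, 12.3, was level with Z14 (12.3) and above Z9 (10.8). In replicate 1 the best call at the start, 11.3, lay below Z14 (11.7) and Z9 (15.8). Among all 21911 protein-coding genes, 21.2% had an optimal peak within 1 kb of a transcription start site (TSS), and among the 10 genes with the highest summed signal in their bodies 6 had one, Zbtb16 being one of the other 4. All 14 Zbtb16 peaks lay over 1 kb from any protein-coding TSS, beside 66.5% of all optimal peaks, and 12 lay over 50 kb from one, beside 20.3%. Both counts follow in part from the length of the gene.

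No other gene of the interval held the summit of an optimal peak in its body. Nnmt, which encodes nicotinamide N-methyltransferase and lies downstream of Zbtb16, had a best pooled call of 12.2. Its TSS, and not that of Zbtb16, was the nearest protein-coding one to Z11, Z12, Z13 and Z14. The distances were 102512 bp, 102311 bp, 44174 bp and 41436 bp. The name Zbtb16 peak thus marks a position, and which gene a peak acts on was not tested. The serotonin receptor gene Htr3b, upstream, had no pooled call with a summit in its body above that value. No pooled summit lay in the bodies of its neighbour Htr3a and the antisense gene Gm32335, although a pooled call of 11.5 at the start of Htr3a overlapped that gene. Just outside the interval, the nearest optimal peaks had signal values of 45.8, at 38815 bp past its downstream edge, and 33.0, at 50785 bp past its upstream edge, nearest to the TSS of Usp28, which encodes a deubiquitinating enzyme. The Zbtb16 peaks nearest to the edges were Z14 with 28.4 and Z1 with 38.6.

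When summits within 10 kb of each other were joined, the 9 peaks of intron 3 formed 1 cluster that spanned 16514 bp. It ranked the first by summed signal of 10550 clusters in the optimal list, with 1013, ahead of the cluster at Myh6, the alpha myosin heavy chain gene, with 927.4. That order depended on the list and the distance. The conservative list is not a subset of the optimal list. The Myh6 cluster held 43 peaks in the conservative list and 29 in the optimal list. With the conservative list the Zbtb16 cluster ranked 2 (1006, against 1431 for the Myh6 cluster), with the first calls of replicate 1 it ranked 2 (552.0, against 968.9 at Myh6), with those of replicate 2 it ranked 3 (432.9, against 966.2 at the neighbouring Myh7), and with a joining distance of 20 kb in the optimal list it ranked 3 (1184, against 1603 for the cluster at Tns1, a tensin gene). The other clusters at Zbtb16 were Z11 with Z12 (171.0, rank 379), Z13 with Z14 (64.7, rank 2978) and Z1 alone (rank 5978).

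The signal of the Zbtb16 cluster was held by few peaks. The strongest made up 30.7% of it and the 4 strongest 87.1%. In the Myh6 cluster, with 29 peaks, the 4 strongest made up 34.3%. The share was 47.7% in the 21 peaks at Tnnt2, which encodes cardiac troponin T, 49.8% in the 15 peaks at Tns1 and 49.9% in the 16 peaks at Txnip, an inhibitor of thioredoxin. The cluster at the clock gene Per1, with 11 peaks and a summed signal of 713.9, had 73.6%. Further down, the 7 peaks at Ddit4 had 79.7% and the 11 at Myl2, a myosin light chain gene, had 67.5%. Smaller numbers of peaks by themselves raise such a share. Of the 33 optimal peaks with a signal value of at least 200, a level picked after the values were seen, 3 were Z10, Z2 and Z3, and no other cluster held more than 1. At a level of 150 the list had 85 peaks and 2 clusters with a pair or more, and at 100 it had 375 peaks and 18 such clusters, of which 2 held 3.

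**Figure D3:**
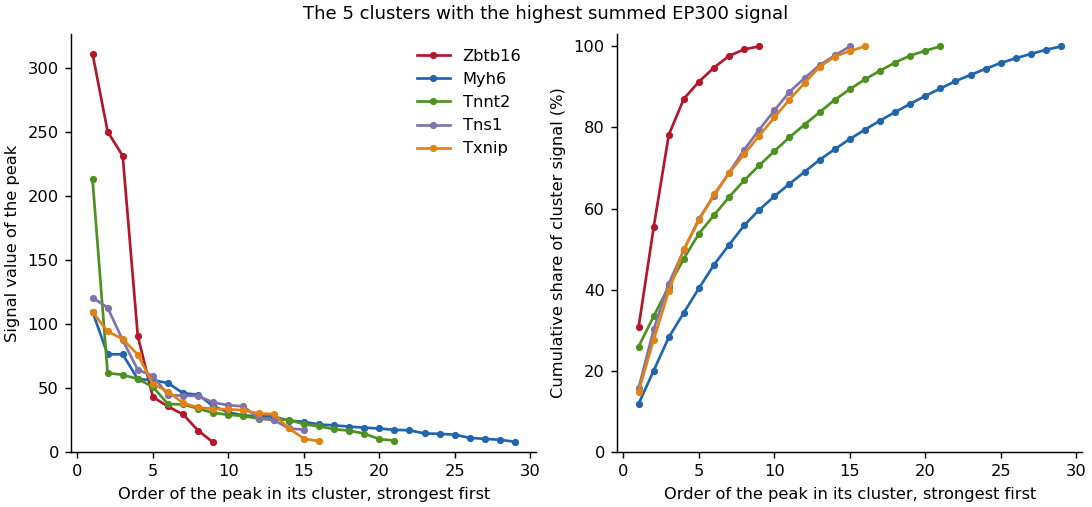
The 5 clusters with the highest summed signal in the optimal list. The left panel plots the signal value of each peak from the strongest down, and the right panel the cumulative share of the cluster's signal (%). The Zbtb16 line starts with 3 peaks above 200 and reaches 87.1% of its sum with 4 peaks, where the Myh6 line stands at 34.3%.

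By signal summed over the gene body, Zbtb16 had 1223 from 12 peaks and ranked 5 of 21911 protein-coding genes, with the same rank in the first calls of replicate 1 (678.9) and of replicate 2 (564.9). By number of peaks in the body it ranked 29. Most of the genes nearest to it in summed signal had more and lower peaks. Fgfr2, a fibroblast growth factor receptor, had 1232 from 37 peaks, none above 100.3, in an annotated model of 2960900 bp. A model of that length can take in other genes, and Tacc2 had the same highest value of 100.3. The 37 peaks thus need not lie at the receptor gene itself. Tns1 had 1625 from 37 peaks with a highest value of 123.2, and Mical2, an actin-oxidising enzyme gene, had 828.5 from 19 peaks with a highest value of 98.2. Syn3, a synapsin gene, had 819.9 from 14 peaks with a highest value of 280.5, and the summit of that peak lay nearest to the TSS of Timp3, a gene nested in it. The strongest peak made up 25.4% of the sum at Zbtb16 and 34.2% at Syn3, while at Fgfr2, Tns1 and Mical2 it made up 7.58% to 11.9%.

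**Figure D4:**
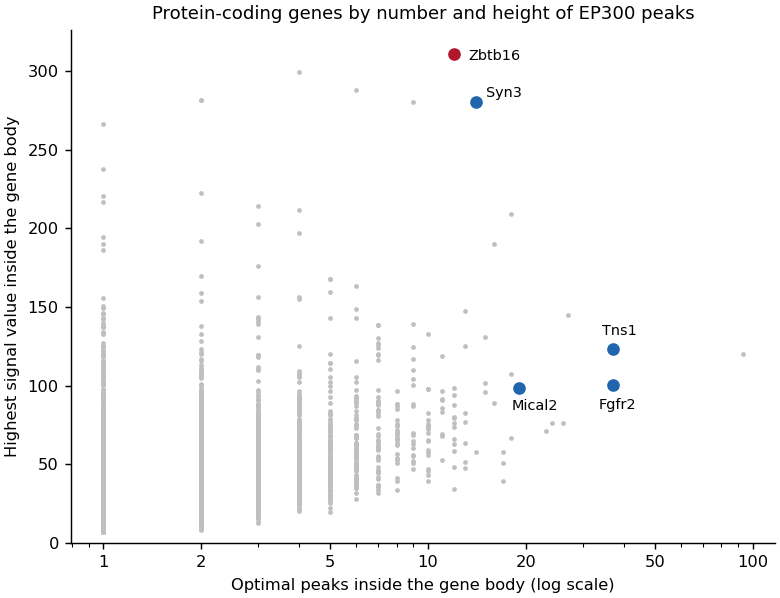
Protein-coding genes with at least 1 optimal peak in the gene body, by the number of those peaks (log scale) and the highest signal value among them. Zbtb16 (red) has the highest value, 310.9, with 12 peaks, and the 4 genes named beside it for their summed signal (blue) have 14 to 37 peaks with highest values from 98.2 to 280.5.

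The windows of 200 bp around the summits were searched on both strands for 15 motifs, and a match is a description of the letters and not a bound site. The full GRE consensus asks for the core palindrome with an A or G before it and a C or T after it. It matched in 3 of the 14 windows, Z3, Z5 and Z10, beside 1.37% of the windows of all 17339 optimal peaks. Among the optimal peaks over 1 kb from a TSS, as all 14 were, the share was 1.88%. The core alone, a looser form tried after the data were seen, matched in 4, Z2 being added, beside 2.09%. The half-site AGAACA matched in 7 of 14 windows, which counts half-sites inside a full GRE too. Beside this stood 15.7% of all optimal peaks and 19.3% of those over 1 kb from a TSS. All of the palindromes lay in intron 3, in 4 of its 9 windows. The windows of Z12 in intron 4 and of Z13 and Z14 past the gene held neither form of the element and no half-site match. Most windows over 1 kb from a TSS lack a GRE, so nothing is read from its absence outside intron 3.

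The palindromes differed in how close their arms came to AGAACA. They are written here with the half-sites in capitals and the spacer in lower case, in the same strand as above.
Z10, chr9:48723703-48723717: AGTACAgagTGTACC
Z3, chr9:48737601-48737615: GGTACAgtgTGTTCT
Z5, chr9:48736507-48736521: AGCACAcagTGTACT
Z2, first, chr9:48740263-48740277: AGCACAcacTGTACA
Z2, second, chr9:48740272-48740286: TGTACAtacTGTACC
Counted against AGAACA read inward from each side, the element of Z3 had 4 and 6 of 6 bases in its left and right arm, and its right arm was the only full match. The element of Z5 had 5 and 5, that of Z10 had 5 and 4, and those of Z2 had 5 and 4 and then 4 and 4. Both elements of Z2 fail the full consensus at an outermost base, and they share 6 bases, the right arm of one being the left arm of the other. The centres lay 65 bp from the summit in Z10, 40 bp in Z3, 24 bp in Z5 and, in Z2, 19 bp and 10 bp, all on the lower-coordinate side.

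**Figure D5:**
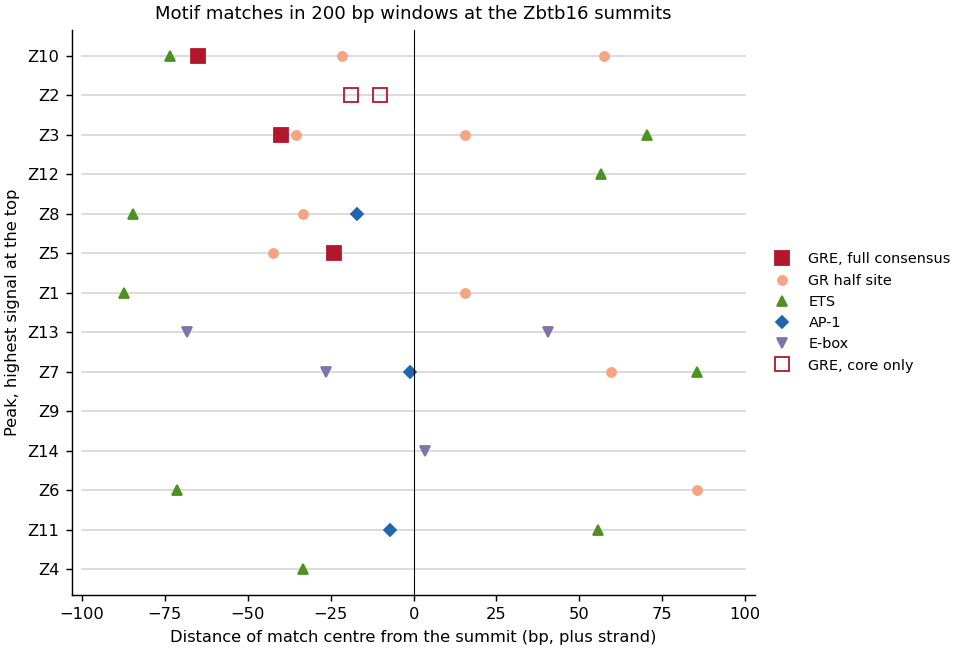
Matches to 5 of the 15 motifs, and to the GRE core, in the 200 bp window at each Zbtb16 summit, by distance of the match centre from the summit (bp, plus strand), with peaks ordered by signal. GRE matches (squares, open for the core only) stand in Z10, Z2, Z3 and Z5, and Z9 has no mark.

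GRE matches were most frequent among the strongest peaks of the whole list. The full consensus was found in 17 of the first 100 optimal peaks, in 3.56% of the next 900, in 1.80% of the 4000 after those and in 0.940% of the other 12339. Of the 65 peaks among the first 100 that lay over 1 kb from a TSS, 26.2% held the full consensus and 32.3% the core. Zbtb16 had 4 peaks in that range, Z10 and Z3 with the full consensus, Z2 with the core only and Z12 with neither. With so few windows, no difference between Zbtb16 and the other strong distal peaks can be read from these counts.

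Of the other motifs, the ETS motif AGGAAG matched in 9 of 14 Zbtb16 windows. Beside this stood 33.3% of all windows and 37.3% of those over 1 kb from a TSS. The AP-1 motif TGANTCA matched in 3, beside 7.41% of all and 9.23% of those over 1 kb from a TSS. It was centred 1 bp from the summit of Z7, 17 bp from that of Z8 and 7 bp from that of Z11. The E-box CAGCTG matched in Z7, Z13 and Z14, beside 17.8% of all windows and 20.9% of those over 1 kb from a TSS, a share like that of the 14. The MEF2 motif, searched by name, matched in Z7 and Z9 (5.48% of all). TEAD, as GGAATG, matched in Z3 (14.9% of all), MEIS, as TGACAG, in Z8 (18.1%), and STAT, as TTCNNNGAA, in Z1 (6.79%). Of the families of cardiac factors searched besides MEF2, no Zbtb16 window matched AGATAA for the GATA family, found in 13.1% of all windows, TNAAGTG for the NKX2 family, in 9.72%, or GGTGTGA for the T-box family, in 3.05%. Among windows over 1 kb from a TSS these shares were 17.2%, 11.7% and 3.60%. With 14 windows, 0 matches cannot be told apart from shares of this size. The clock E-box CACGTG (6.30% of all), the CArG box (1.44%) and the CTCF motif (0.732%), the last pair searched by name, did not match either. The window of Z2 matched none of the 15 motifs, its palindromes having the core only. The windows of Z4 and Z12 matched the ETS motif alone, those of Z13 and Z14 the E-box alone and that of Z9 the MEF2 motif alone.

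The median GC content of the Zbtb16 windows was 46.8%, beside 50.5% over the optimal peaks that lay over 1 kb from a TSS and 53.0% over all. Z13 was the exception with 70.5%, and the other 13 lay between 40.5% and 54.0%. Bases that the reference marks as repeats were present in 10 of the 14 windows, beside 52.1% of the distal windows, and took up at most 40.5% of any of them. Z1, Z8, Z9 and Z10 had none.

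The genes known to be induced by glucocorticoids, as Zbtb16 is, were listed beside it. All 20 had an optimal peak in the gene body or within 100 kb, beside 15099 of 21911 protein-coding genes (68.9%), and their median summed signal in that range was 284.3, beside 68.8. Zbtb16 had 1288 there, above all 20, of which the highest were Ddit4, an inhibitor of mTOR signalling, with 1127, Per1 with 1033, the lipoprotein lipase inhibitor Angptl4 with 779.3, and Fkbp5, which encodes a co-chaperone of the glucocorticoid receptor, with 717.7. The ranges of neighbouring genes overlap, so a peak counted for one of them may lie nearer to another gene. In the gene body alone Zbtb16 had 1223 and the highest of the 20 was Per1 with 443.8. Body sums are not adjusted for gene length. Zbtb16 is 181926 bp long, while Ddit4, with only 28.8 in its body, spans chr10:59949669-59951834. A peak with a full GRE lay in the gene body or within 100 kb at 11 of the 20, beside 3.73% of all protein-coding genes. The 20 also had more peaks in that range, a median of 7 beside 2. The 11 genes with a full GRE in that range were Klf15, Mt1, Mt2, Sgk1, Ddit4, Per1, Dusp1, Fkbp5, Cdkn1a, Klf9 and Tsc22d3. The neighbouring metallothionein genes Mt1 and Mt2 share their peaks.

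Among the genes for partners of the PLZF protein, 8 of 10 had an optimal peak in the gene body or within 100 kb, beside 68.9% of all protein-coding genes, with a median summed signal of 130.4, beside 68.8. Rara, the retinoic acid receptor gene, had 742.2 with 10 peaks in its body. Cul3, the scaffold of the ubiquitin ligase that PLZF joins, had 184.1 and none in its body. Agtr2, the gene of the angiotensin AT2 receptor, had no optimal peak in this range, and neither had Atp6ap2, which encodes the (pro)renin receptor. Of 18 other BTB zinc finger genes, 16 had a peak in this range, beside the same 68.9%, with a median summed signal of 166.2, beside 68.8. The highest was Zbtb7a with 774.6, and Zbtb10 and Zbtb33 had none. In the gene body the highest of these relatives was Zbtb40 with 127.2, beside 1223 at Zbtb16, with no adjustment for gene length.

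The tissue label was set beside marker genes, against the 68.9% of all protein-coding genes with an optimal peak in the body or within 100 kb and their median summed signal of 68.8. All 10 heart muscle genes had such a peak, with a median summed signal of 591.0, from 170.7 at Ttn to 1490 at Myh6. All 5 endothelial genes had one, with a median of 320.0. Of the fibroblast genes 4 of 5 had one, with a median of 28.4, a highest sum of 279.3 at Col1a1 and 0 at Pdgfra. Of the contrast genes, 3 of 5 liver genes had one, with a median of 32.5, a highest sum of 290.4 at Hnf4a and 0 at Alb and Afp. Likewise 3 of 5 neuronal genes had one, with a median of 32.6, a highest sum of 251.6 at Rbfox3 and 0 at Neurod1 and Snap25. The highest contrast genes thus lay above the lowest heart muscle gene.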

How the data were processed

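EP300 ChIP-seq peaks of 2 heart samples in 1 group were analysed from 5 deposited lists on mm10. Each replicate and the pooled reads had their own peak calls, made with different control files per the file headers, and the optimal and conservative lists were derived from these by IDR. The caller's name and settings were not given in the sources used here, nor was the IDR threshold. Each deposited list gives a signal value, a −log10 q and, in the IDR lists, a score. Signal served to rank and describe the peaks of 1 list at a time. The files give no read counts and so no depth, and no confidence intervals were computed.

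Summits were placed on RefSeq's GRCm38.p6 sequence with GENCODE M21 gene models, and all peaks and genes were checked to lie inside their chromosomes. Peaks on other contigs were left out, which leaves 17339 of 17372. Introns follow transcript 201 of Zbtb16, distances to the start of the gene run from its annotated 5′ end, and gene sums cover protein-coding genes. Named are Zbtb16, the genes of the interval, the listed genes with the highest sums, and 4 of the 5 genes nearest in summed body signal, since the other is not reported here. Other genes were picked with their values in view. The gene, its peaks and the lists were chosen with earlier results of these data known. No group comparison was possible, and no test was made. Summit matching and clustering were tested on simulated data. Python 3.11.15, numpy 2.4.6, pandas 2.3.3 and matplotlib 3.10.9 were used.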

Additional observations from a re-analysis of the deposited data

How the results depend on the processing

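The number of Zbtb16 peaks was 14 and lay between 11 and 15 with narrower intervals, the conservative list, a −log10 q of at least 2, merged summits and either replicate alone (13 and 15). The intron 3 cluster held 9 peaks, also when joined within 5 kb, and 8 in the conservative list. Joined within 20 kb it took in Z11 and Z12 of intron 4 and held 11. With replicate 1 alone it held 7 peaks with 76.0% of the summed signal, and with replicate 2 alone 8 with 72.2%, against 78.7% in the optimal list. The peaks shared by both replicates numbered 9 of 14, but 5 with 10000 leading peaks of each replicate, and 6 to 13 with other distances and numbers of peaks. The full GRE matched in 3 windows, in 2 with windows of 100 bp, and the core in 4. No paired analysis was possible because the study has 1 group. The formula of the signal value is not stated and the depth is unknown, so differences in height between peaks carry no error beyond the spread of the 2 replicates, which share a donor. Some neighbouring calls overlap and are counted separately.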
